A study of Mus musculus with 6 samples.

Results

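Transcripts of 41 genes of excision, mismatch and end-joining DNA repair were measured by mRNA sequencing in mouse epidermal keratinocytes, which build the outer layer of the skin and were grown in culture. The genes were taken by symbol from a table of 23420 genes, in which all 41 were found: 18 of base excision repair, 5 of mismatch repair, 11 of nucleotide excision repair, 6 of end joining and the exonuclease gene Exo5. Cells of both groups carried loxP-flanked (fl/fl) alleles of the transcription factor gene Gata6, and both received 1 µM 4-hydroxytamoxifen for 6 hours at passage 8 to 10 in low-calcium E medium. The group labelled iKO (induced knockout) also carried K14CreERT2, a Cre recombinase that tamoxifen activates and the keratin 14 promoter drives, and the group labelled WT lacked it. There were 3 libraries in each group, called here iKO 3, iKO 4 and iKO 33 and WT 2, WT 3 and WT 4, with 21943467 to 83337263 gene counts each.

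Each repair route removes another kind of damage. In base excision repair a glycosylase cuts out a damaged base, an endonuclease opens the strand at the abasic site, and a polymerase and a ligase close the gap while PARP enzymes sense the break. Nucleotide excision repair cuts out a stretch around bulky lesions such as those ultraviolet light makes in skin, mismatch repair corrects copying errors behind the replication fork, and end joining ties together the ends of a double-strand break.

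Gata6 transcripts went against the labels: Gata6 had 14.2, 21.0 and 17.0 CPM (read counts scaled to a common library size) in iKO 3, iKO 4 and iKO 33, against 2.86, 0.519 and 5.37 CPM in WT 2, WT 3 and WT 4. Its log2 fold change of 2.60 (SE 0.72) did not pass the threshold in edgeR (adjusted p = 0.180; 0.0855 to 0.413 when each library was left out) and passed in DESeq2 (adjusted p = 0.00208), without overlap between the groups. Counts over a whole gene cannot show whether the floxed exons are gone. Libraries are therefore named by their labels, and each direction sets the iKO-labelled against the WT-labelled libraries. Sex-linked transcripts, Xist and 4 Y-linked genes, did not overlap between the groups either, so that the sex of the cells and the label cannot be told apart. Keratinocyte markers summed to 31814 to 47664 CPM in the iKO-labelled and 30381 to 42582 CPM in the WT-labelled libraries, nearly all of it Krt5 and Krt14. Of these 9 markers 4 were higher and 5 lower, among them Trp63 at a log2 fold change of -0.68 (SE 0.10, edgeR adjusted p = 0.0529), Krt10 at -1.11 (SE 0.36), Krt15 at -1.28 (SE 0.49) and Cdh1 at 0.55 (SE 0.12). None passed in edgeR, and DESeq2 called 1 higher and 2 lower. Endothelial markers summed to 7.29 to 8.94 CPM in the iKO-labelled and 9.31 to 19.0 CPM in the WT-labelled libraries without overlap, mostly Kdr, while Cdh5 had at most 0.0222 CPM in any library. Fibroblast markers summed to 0.959 to 3.38 CPM in the iKO-labelled and 0.692 to 2.64 CPM in the WT-labelled libraries, with Dcn and Lum at 0 in all of them. Melanocyte markers summed to 3.65 to 5.42 CPM with the iKO label and 3.13 to 4.46 CPM with the WT label, and immune cell markers to 0.2 to 0.467 CPM with the iKO label and 0.152 to 0.455 CPM with the WT label. The part of these markers in the results was not tested. Reads that aligned in more than a single place made up 21.7% to 26.5% of all counts in the iKO-labelled and 29.5% to 30.5% in the WT-labelled libraries, and their part in the results was not tested. Whether the 3 libraries of a group are separate cultures or animals is not stated, and p-values therefore measure a spread that may be technical.

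Exo5 rose in the iKO-labelled libraries, and no other gene of the 41 passed the threshold in either direction. Of the 40 genes with enough counts to be tested, 14 were higher and 26 lower, and the lower ones lay at small differences, down to a log2 fold change of -0.77. Members of all 4 routes were among the lower ones: Ung and Parp1 of base excision, Msh3 of mismatch repair, Ercc8 of nucleotide excision, and Xrcc5 and Xrcc6 of end joining. The test was edgeR's quasi-likelihood test with Benjamini-Hochberg adjustment over all 12672 tested genes at 0.05, and fold changes are iKO-labelled minus WT-labelled.

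Over all tested genes, 29 (0.229%) were called higher and 14 (0.110%) lower, against 1 and 0 of the 40 repair genes. The 1 call was Exo5, which was listed apart from the 4 routes. Members were chosen with earlier results of these data known, so the share called is not a test of these genes. Without Exo5, 0 of 39 repair genes were called in edgeR in either direction, 66.7% were lower and the median log2 fold change was -0.15. At an unadjusted p under 0.05 in edgeR, 1 repair gene was higher and 9 (22.5%) were lower, beside 7.32% and 7.70% of all tested genes. The groups did not overlap, with iKO-labelled libraries above, for 2 of the 40 repair genes (Exo5 and Ercc6), beside 10.5% of all tested genes. With iKO-labelled libraries below they did not overlap for 14 repair genes (35.0%), beside 11.3% of all tested genes. In DESeq2, which passes more genes in these data, 1 repair gene was called higher and 4 (10.0%) lower (Ung, Parp1, Msh3 and Ercc8), beside 3.18% and 2.94% of 12668 genes. For comparison, the authors' deposited table also gives an adjusted p under 0.05 to these 5 of the 40 genes. The median log2 fold change of the 40 was -0.14, against 0.01 over all tested genes, and 65.0% of them were lower, against 48.8%. The median was -0.08 with limma-voom, -0.08 without iKO 3 or WT 4, -0.09 without WT 2, -0.22 without iKO 4 and -0.23 without WT 3, so its size moved by over 1.5 times with single libraries.

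**Figure D1:**
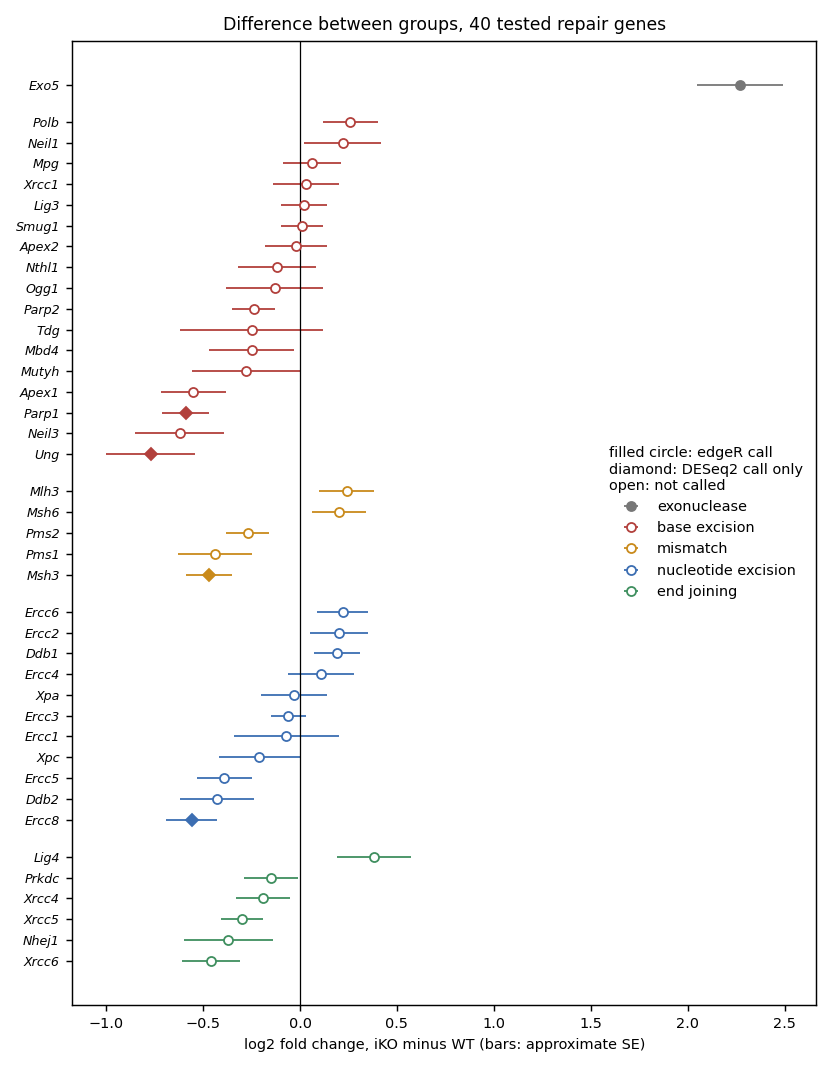
Log2 fold change (x axis, iKO-labelled minus WT-labelled, with approximate SE as bars) of each of the 40 tested repair genes, grouped by repair route, with filled circles for genes called by edgeR and diamonds for genes called only by DESeq2. Exo5 stands at 2.27, and the other 39 genes lie between -0.77 and 0.38.

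Exo5 encodes an exonuclease that, in human cells, degrades single-stranded DNA from its ends and takes part in the repair of crosslinks between strands. Exo5 (chromosome 4, 120921196 to 120925017, minus strand, mm10) had 9.75, 10.6 and 9.46 CPM in iKO 3, iKO 4 and iKO 33, against 2.21, 2.34 and 1.59 CPM in WT 2, WT 3 and WT 4. All 3 iKO-labelled libraries were far above all 3 WT-labelled ones. The highest library was 1.12 times the lowest with the iKO label and 1.47 times the lowest with the WT label. The means were 9.92 ± 0.566 and 2.05 ± 0.401 CPM (SD, n = 3 each), 4.83 times as high with the iKO label, and the log2 fold change was 2.27 (SE 0.22, edgeR adjusted p = 0.0143). These values rest on 305 to 804 reads per iKO-labelled and 48 to 185 reads per WT-labelled library. Exo5 ranked at place 15 of all genes by p. The adjusted p was 1.6e-17 in DESeq2 and 0.0128 in limma-voom, and over the 15 alternatives it ran from 1.6e-17 to 0.458 with log2 fold changes of 2.11 to 2.39. With 1 library left out, the direction and size stayed and the call was lost in 4 of 6 cases, with adjusted p = 0.0553 without iKO 3, 0.0718 without iKO 4, 0.0747 without iKO 33 and 0.113 without WT 2.

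Genes beside Exo5 on chromosome 4 lay near no difference. The 7 tested genes whose ends lie within 500 kb had log2 fold changes of -0.16 (Ctps, SE 0.13) to 0.13 (Rlf, SE 0.13), with a median of -0.01, and none had an unadjusted p under 0.05 in edgeR. The nearest tested gene, Zfp69, lies on the same strand, ends 5.12 kb upstream of the start of Exo5 and measured 0.806 ± 0.341 CPM in the iKO-labelled and 0.807 ± 0.363 CPM in the WT-labelled libraries (SD, n = 3 each). Zfp69 thus differed by less than its spread within the groups, and at this low level its log2 fold change of -0.01 (SE 0.46) is uncertain.

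**Figure D2:**
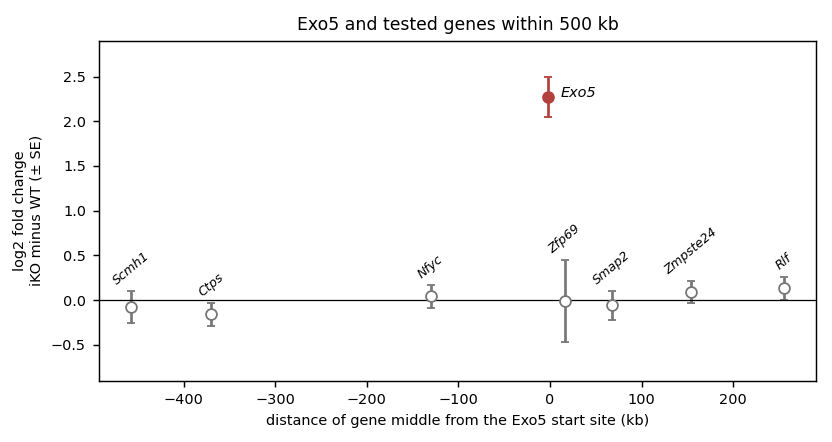
Log2 fold change (y axis, iKO-labelled minus WT-labelled, with approximate SE as bars) of Exo5 and of the 7 tested genes within 500 kb of it, by the distance of each gene's middle from the Exo5 start site (x axis, kb). Exo5 stands at 2.27, and its neighbours lie between -0.16 and 0.13.

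In base excision repair, 6 of 17 tested genes were higher and 11 lower, with a median log2 fold change of -0.13, and none passed the threshold in edgeR. The glycosylase Ung, which removes uracil from DNA, had 14.8, 11.8 and 11.3 CPM in iKO 3, iKO 4 and iKO 33, against 24.4, 15.2 and 25.1 CPM in WT 2, WT 3 and WT 4. WT 3 lay just above the highest iKO-labelled library, while WT 2 and WT 4 stood well apart from it. The log2 fold change was -0.77 (SE 0.23, edgeR adjusted p = 0.194), the lowest of the 40, and DESeq2 alone called it (adjusted p = 0.0444, 0.0444 to 0.669 over the 15 alternatives). Of the other enzymes that remove uracil or mispaired thymine, Smug1 was level (0.01, SE 0.11) and Mbd4 had a log2 fold change of -0.25 (SE 0.22).

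Tdg, the thymine glycosylase that also acts in DNA demethylation, had the lowest level per length of the tested repair genes. It measured 1.76, 1.38 and 1.81 CPM in iKO 3, iKO 4 and iKO 33, against 2.95, 1.67 and 1.31 CPM in WT 2, WT 3 and WT 4, with WT 2 alone above the rest. The log2 fold change of -0.25 (SE 0.37) turned to 0.14 without WT 2. Tdg counts are uncertain, since a processed pseudogene, Tdg-ps, matches 2968 bases of its transcript at 98.7% identity and reads could be split or dropped between such copies.

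Among glycosylases for oxidised bases, Neil3, which acts on single-stranded DNA and is known for expression in dividing cells, had 4.51, 4.09 and 4.32 CPM in iKO 3, iKO 4 and iKO 33, against 7.51, 4.96 and 7.36 CPM in WT 2, WT 3 and WT 4. As with Ung, WT 3 was the lowest WT-labelled library and the groups did not overlap. The log2 fold change was -0.62 (SE 0.23, edgeR adjusted p = 0.286). Ogg1 (-0.13, SE 0.25), Mutyh (-0.28, SE 0.28), Nthl1 (-0.12, SE 0.20) and Neil1 (0.22, SE 0.20) overlapped between the groups. Of the Ogg1 exon bases, 10.6% lie in Camk1 on the opposite strand. Neil2 was nearly unread, with 0, 0 and 5 reads in iKO 3, iKO 4 and iKO 33 and 2, 3 and 3 reads in WT 2, WT 3 and WT 4, and it was the 1 gene that could not be tested. Mpg, the glycosylase for alkylated bases, had a log2 fold change of 0.06 (SE 0.15), but 35.7% of its exon bases overlap Nprl3 on the opposite strand.

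Apex1 encodes the main endonuclease that opens the strand at abasic sites. It had 19.2, 24.1 and 28.2 CPM in iKO 3, iKO 4 and iKO 33, against 36.1, 37.2 and 31.2 CPM in WT 2, WT 3 and WT 4. The iKO-labelled libraries were all below the WT-labelled ones and spread widely among themselves. The log2 fold change was -0.55 (SE 0.17, edgeR adjusted p = 0.210). Of the Apex1 exon bases, 61.7% also belong to Pip4p1 on the opposite strand, and since the library kit does not mark strand, reads of the overlap cannot be told apart. The X-linked relative Apex2 was level between the groups, with a log2 fold change of -0.02 (SE 0.16).

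Parp1, the sensor that binds strand breaks and builds poly(ADP-ribose) chains, had the smallest p of the genes with a negative log2 fold change. It had 88.2, 112 and 101 CPM in iKO 3, iKO 4 and iKO 33, against 151, 157 and 146 CPM in WT 2, WT 3 and WT 4, and the groups stood well apart. The means were 100.4 ± 12.1 and 151 ± 5.33 CPM (SD, n = 3 each), and the log2 fold change of -0.59 (SE 0.12) missed the threshold in edgeR (adjusted p = 0.107). DESeq2 alone called it (adjusted p = 0.00182, 0.00182 to 0.633 over the 15 alternatives). Parp2, which shares its catalytic activity, was lower by less, with a log2 fold change of -0.24 (SE 0.11) and no overlap between the groups. The ratio of Parp1 to Parp2 per kb of exon was 2.34, 2.93 and 2.92 in iKO 3, iKO 4 and iKO 33, against 3.55, 3.54 and 3.34 in WT 2, WT 3 and WT 4. All iKO-labelled ratios were below all WT-labelled ones, and this pair, like the gene pairs below, was chosen after the values were seen and was not tested.

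Genes that fill and close the gap lay near no difference. The scaffold gene Xrcc1 and the ligase gene Lig3, whose proteins form a complex, had log2 fold changes of 0.03 (SE 0.17) and 0.02 (SE 0.12), and their ratio overlapped between the groups. The repair polymerase gene Polb had 0.26 (SE 0.14), with overlapping groups. Lig3 shares 25.1% of its exon bases with Rffl on the opposite strand.

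**Figure D3:**
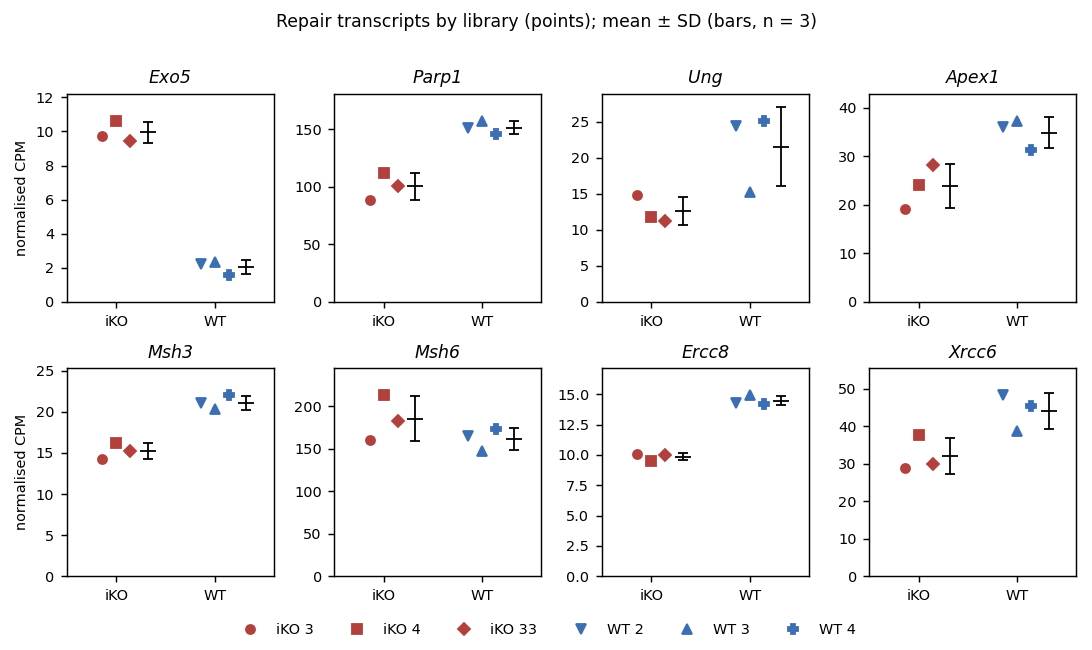
Normalised CPM (y axes, each starting at 0) of 8 repair genes in each library, with iKO-labelled libraries in red on the left, WT-labelled ones in blue on the right, and the mean and SD (n = 3) as a bar beside each group. Exo5 is near 10 CPM with the iKO label and near 2 CPM with the WT label, Msh6 overlaps between the groups, and the other 6 genes are lower with the iKO label.

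In mismatch repair, 2 of 5 genes were higher and 3 lower, with a median log2 fold change of -0.27, and none passed the threshold in edgeR. Both recognition subunits named here pair with the same partner protein: Msh6 to find single mismatches and short loops, and Msh3 to find larger loops. Msh3 had 14.3, 16.2 and 15.2 CPM in iKO 3, iKO 4 and iKO 33, against 21.1, 20.3 and 22.0 CPM in WT 2, WT 3 and WT 4, with no overlap and narrow groups. The means were 15.2 ± 0.914 and 21.1 ± 0.801 CPM (SD, n = 3 each), with a log2 fold change of -0.47 (SE 0.12, edgeR adjusted p = 0.170). DESeq2 alone called it (adjusted p = 0.0215, 0.0215 to 0.644 over the 15 alternatives).

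Msh6, the highest mismatch repair gene per length, had 160.5, 213 and 183 CPM in iKO 3, iKO 4 and iKO 33, against 165, 147 and 173 CPM in WT 2, WT 3 and WT 4. The groups overlapped, since iKO 3 lay below WT 2 and WT 4, and the log2 fold change was 0.20 (SE 0.14, edgeR adjusted p = 0.549). Per kb of exon, Msh6 exceeded Msh3 by a ratio of 29.0, 34.2 and 31.0 in iKO 3, iKO 4 and iKO 33, against 20.2, 18.7 and 20.4 in WT 2, WT 3 and WT 4. The ratio was thus higher in every iKO-labelled library than in any WT-labelled one, at 31.4 ± 2.62 against 19.8 ± 0.948 (SD, n = 3 each).

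The MutL homologues act after recognition, and Pms2 supplies the nick that starts removal of the strand. Pms2 had 18.9, 19.1 and 18.3 CPM in iKO 3, iKO 4 and iKO 33, against 23.0, 21.6 and 23.2 CPM in WT 2, WT 3 and WT 4. The libraries of each group were close together and the groups apart, at a log2 fold change of -0.27 (SE 0.11, edgeR adjusted p = 0.336). Pms1 had -0.44 (SE 0.19), with iKO 4 just above WT 2, and Mlh3 had 0.24 (SE 0.14), with overlapping groups.

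Promoters of Msh3, Msh6 and Xrcc6 are shown because they hold a match to an E2F-type motif, the kind bound by the factors that drive many S phase genes, and that of Parp1 because it holds none while Parp1 had the smallest p of the lower genes. They are RefSeq windows of 300 bases on GRCm38.p6, the assembly of mm10, from 250 bases before to 50 bases after the gene start, on the strand of the gene, with motif matches in capitals. The RefSeq starts can differ from the GENCODE gene ends, and for Xrcc6 GENCODE has the gene begin at 81987835, far outside the window shown. Positions are chr13:92354954-92355253 (minus strand), chr17:87974800-87975099 (plus), chr15:82016119-82016418 (plus) and chr1:180568641-180568940 (plus).
Msh3: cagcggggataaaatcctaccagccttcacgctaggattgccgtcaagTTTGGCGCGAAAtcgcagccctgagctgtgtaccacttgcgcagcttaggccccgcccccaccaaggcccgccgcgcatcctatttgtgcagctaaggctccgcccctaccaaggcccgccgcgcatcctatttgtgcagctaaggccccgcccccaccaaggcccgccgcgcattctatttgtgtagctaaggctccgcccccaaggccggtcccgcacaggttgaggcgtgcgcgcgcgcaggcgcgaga
Msh6: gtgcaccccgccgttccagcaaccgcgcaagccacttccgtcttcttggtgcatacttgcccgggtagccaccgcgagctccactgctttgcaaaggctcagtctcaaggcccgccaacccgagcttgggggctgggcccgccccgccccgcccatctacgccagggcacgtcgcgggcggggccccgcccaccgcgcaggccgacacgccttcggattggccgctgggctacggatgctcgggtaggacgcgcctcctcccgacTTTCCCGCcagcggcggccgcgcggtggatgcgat
Xrcc6: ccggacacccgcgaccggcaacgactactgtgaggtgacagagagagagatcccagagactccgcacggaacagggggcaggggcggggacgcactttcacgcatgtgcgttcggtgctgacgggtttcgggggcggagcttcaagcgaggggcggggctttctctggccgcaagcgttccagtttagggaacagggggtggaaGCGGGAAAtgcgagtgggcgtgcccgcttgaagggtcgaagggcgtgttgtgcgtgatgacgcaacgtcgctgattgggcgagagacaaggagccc
Parp1: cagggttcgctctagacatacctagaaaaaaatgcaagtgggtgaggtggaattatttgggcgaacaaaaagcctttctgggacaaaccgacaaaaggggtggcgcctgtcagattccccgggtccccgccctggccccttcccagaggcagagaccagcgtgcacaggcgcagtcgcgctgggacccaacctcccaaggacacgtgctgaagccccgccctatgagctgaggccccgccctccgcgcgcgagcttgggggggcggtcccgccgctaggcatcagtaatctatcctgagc

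The motifs searched were TTTGGCGC, TTTGCCGC, TTTCGCGC and TTTCCCGC on both strands, with overlapping matches counted. Of 32851 windows of this length, 744 (2.3%) held at least 1 match, and of the 36 windows of repair genes (33 of the 41 genes have a window) 4 did (11.1%), those of Nthl1, Msh3, Msh6 and Xrcc6. In Msh3 a pair of matches on opposite strands overlap from 202 bases before the start, in Msh6 the match lies 15 bases after it, and in Xrcc6 it lies 46 bases before it on the opposite strand. The 4 genes differed in direction, with log2 fold changes of -0.12 for Nthl1, -0.47 for Msh3, 0.20 for Msh6 and -0.46 for Xrcc6. The motif was chosen with these values known, and a match is a description of letters, not of binding.

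In nucleotide excision repair, 4 of 11 genes were higher and 7 lower, with a median log2 fold change of -0.06, and none passed the threshold in edgeR. Lesions are found either anywhere in the genome, by the DDB1 and DDB2 complex and XPC, or where RNA polymerase stalls, by the proteins of Ercc6 (CSB) and Ercc8 (CSA). Ddb1 also serves as the adaptor of a large family of ubiquitin ligases, and it was the most abundant repair gene per length. It had 1201, 1525 and 1359 CPM in iKO 3, iKO 4 and iKO 33, against 1227, 1192 and 1171 CPM in WT 2, WT 3 and WT 4. WT-labelled libraries were nearly equal, iKO 3 lay among them and iKO 4 and iKO 33 above, for a log2 fold change of 0.19 (SE 0.12, edgeR adjusted p = 0.519).

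Ddb2, its partner in the recognition of ultraviolet lesions, went the other way. It had 6.52, 5.87 and 6.19 CPM in iKO 3, iKO 4 and iKO 33, against 8.07, 9.84 and 7.08 CPM in WT 2, WT 3 and WT 4. The groups did not overlap, with WT 4 close to the iKO-labelled libraries, and the log2 fold change was -0.43 (SE 0.19, edgeR adjusted p = 0.359). Of Ddb2 exon bases, 23.8% lie in Acp2 on the opposite strand. The ratio of Ddb1 to Ddb2 per kb of exon was 78.6, 111 and 93.7 in iKO 3, iKO 4 and iKO 33, against 64.9, 51.7 and 70.6 in WT 2, WT 3 and WT 4, with every iKO-labelled ratio above every WT-labelled one. Xpc had a log2 fold change of -0.21 (SE 0.21), with overlapping groups.

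The 2 genes of recognition at stalled polymerases differed in direction. Ercc8 had 10.1, 9.51 and 9.98 CPM in iKO 3, iKO 4 and iKO 33, against 14.3, 14.9 and 14.2 CPM in WT 2, WT 3 and WT 4. Both groups were tight and far apart, at 9.86 ± 0.313 and 14.5 ± 0.375 CPM (SD, n = 3 each). The log2 fold change of -0.56 (SE 0.13) missed the threshold in edgeR (adjusted p = 0.147). DESeq2 alone called it (adjusted p = 0.00591, 0.00591 to 0.633 over the 15 alternatives). Ercc6 had 23.8, 26.5 and 23.5 CPM in iKO 3, iKO 4 and iKO 33, against 21.5, 19.2 and 22.5 CPM in WT 2, WT 3 and WT 4. Its groups did not overlap either, with the iKO-labelled libraries above by little more than the spread, and the log2 fold change was 0.22 (SE 0.13, edgeR adjusted p = 0.464).

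Of the genes that open and cut the strand, Ercc5, which encodes the XPG nuclease on the 3′ side of the lesion, had 68.3, 63.1 and 75.6 CPM in iKO 3, iKO 4 and iKO 33, against 83.1, 105 and 82.8 CPM in WT 2, WT 3 and WT 4. The iKO-labelled libraries were all below, with WT 3 the farthest above them, and the log2 fold change was -0.39 (SE 0.14, edgeR adjusted p = 0.263). The subunits of the 5′ nuclease, Ercc1 (-0.07, SE 0.27) and Ercc4 (0.11, SE 0.17), overlapped between the groups, and Ercc1 varied widely, with 59.7 to 92.5 CPM in the iKO-labelled and 50.3 to 95.9 CPM in the WT-labelled libraries. The TFIIH helicase genes Ercc2 (0.20, SE 0.15) and Ercc3 (-0.06, SE 0.09) and the damage verification gene Xpa (-0.03, SE 0.17) differed by little more than their SE or less. On the opposite strand, 24.6% of the Ercc2 exon bases lie in Gm26852 and 17.8% in Klc3. Ercc3 had the smallest SE of the 40 genes, and its groups did not overlap at 75.1 ± 2.36 and 78.4 ± 0.439 CPM (SD, n = 3 each). The ratio of Ercc1 to Ercc4 per kb of exon overlapped between the groups, at 6.31 ± 1.88 (iKO label) and 7.04 ± 2.09 (WT label). That of Ercc2 to Ercc3 overlapped as well, at 0.251 ± 0.0286 (iKO label) and 0.209 ± 0.0196 (WT label, SD, n = 3 each).

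In end joining, 1 of 6 genes was higher and 5 lower, with a median log2 fold change of -0.24, and none passed the threshold in edgeR. Xrcc5 and Xrcc6 encode Ku80 and Ku70, the ring that binds a broken end and recruits the kinase of Prkdc. Xrcc6 had 28.8, 37.7 and 29.8 CPM in iKO 3, iKO 4 and iKO 33, against 48.2, 38.8 and 45.4 CPM in WT 2, WT 3 and WT 4. The groups came close, iKO 4 lying just under WT 3, and the log2 fold change was -0.46 (SE 0.15, edgeR adjusted p = 0.238). Xrcc5, the highest end-joining gene per length, had 63.5, 75.4 and 72.3 CPM in iKO 3, iKO 4 and iKO 33, against 86.7, 86.1 and 87.8 CPM in WT 2, WT 3 and WT 4. Its WT-labelled libraries were nearly equal and all above the iKO-labelled ones, at a log2 fold change of -0.30 (SE 0.11, edgeR adjusted p = 0.263). The ratio of Xrcc6 to Xrcc5 per kb of exon overlapped between the groups, at 0.260 ± 0.0252 and 0.290 ± 0.0304 (SD, n = 3 each).

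Prkdc, the lowest end-joining gene per length, had 26.2, 31.4 and 30.5 CPM in iKO 3, iKO 4 and iKO 33, against 30.8, 36.8 and 30.1 CPM in WT 2, WT 3 and WT 4. These groups overlapped, and the log2 fold change was -0.15 (SE 0.14, edgeR adjusted p = 0.656).

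The final step is made by the ligase of Lig4 with Xrcc4 and the filament protein XLF, encoded by Nhej1. Lig4 had 20.5, 26.0 and 27.6 CPM in iKO 3, iKO 4 and iKO 33, against 15.0, 20.8 and 21.1 CPM in WT 2, WT 3 and WT 4. It was the 1 end-joining gene with a positive log2 fold change (0.38, SE 0.19, edgeR adjusted p = 0.398), and iKO 3 lay within the WT-labelled range. Nhej1 had 2.94, 2.87 and 2.48 CPM in iKO 3, iKO 4 and iKO 33, against 3.60, 3.82 and 3.30 CPM in WT 2, WT 3 and WT 4, without overlap (-0.37, SE 0.23, edgeR adjusted p = 0.487). Xrcc4 had -0.19 (SE 0.14), so that the ratio of Lig4 to its partner Xrcc4 per kb of exon was 1.42, 1.83 and 1.82 in iKO 3, iKO 4 and iKO 33, against 0.886, 1.17 and 1.39 in WT 2, WT 3 and WT 4. Every iKO-labelled ratio was above every WT-labelled one, though iKO 3 and WT 4 nearly met.

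Single libraries shaped many of these values. Of the 40 tested genes, iKO 3 was the lowest of the 6 libraries for 11 and WT 3 for 8, while WT 3 and WT 4 were the highest for 11 each. Within a group, the highest library exceeded the lowest by a median of 1.21 times with the iKO label, up to 1.58 times for Ogg1, and by a median of 1.25 times with the WT label, up to 2.26 times for Tdg. Leaving out WT 3 gave 30 lower genes and leaving out WT 4 gave 23, against 26 with all libraries.

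**Figure D4:**
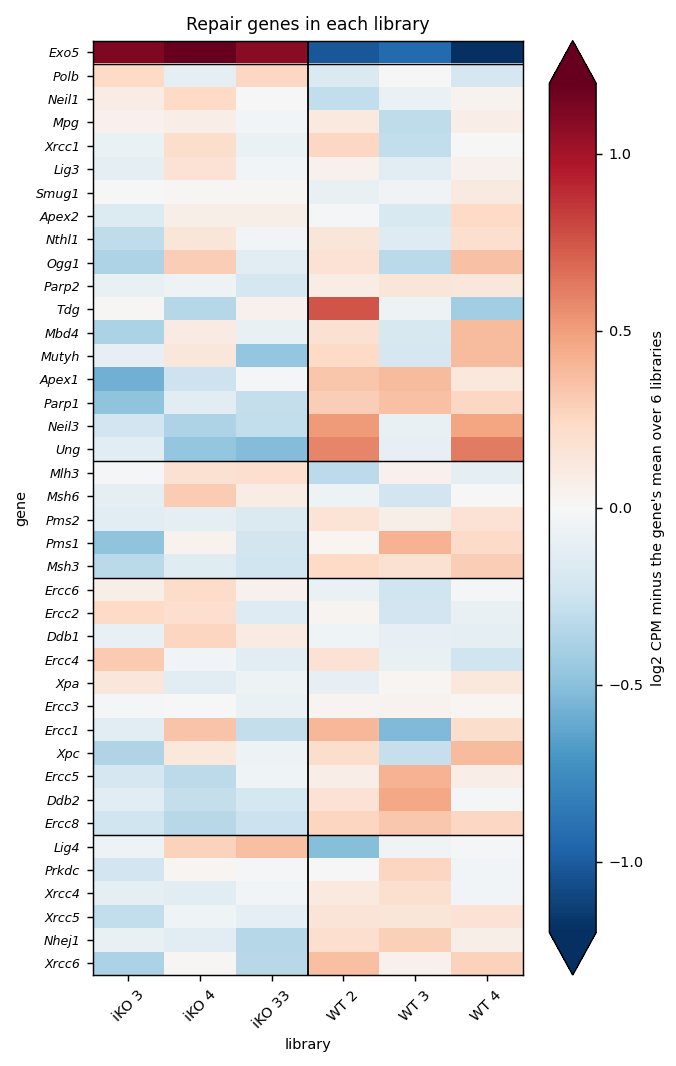
Log2 CPM of each of the 40 tested repair genes in each library (columns), as the difference from that gene's mean over the 6 libraries (colour, red above and blue below the mean), with genes in the order of the plot of log2 fold changes. Exo5 is red in all 3 iKO-labelled and blue in all 3 WT-labelled libraries, and Parp1, Msh3 and Ercc8 show the opposite order.

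Levels per length, which depend on the annotated exons of all isoforms, spanned a wide range. Over both groups they ran from 199.6 CPM per kb of exon for Ddb1 to 0.337 for Tdg among tested genes. The Tdg level is uncertain, since reads that match its near-identical pseudogene copies could be split or dropped. Within the routes the lowest tested members were Tdg, Ercc8 (1.59), Msh3 (1.62) and Prkdc (2.35 CPM per kb), and the highest besides Ddb1 were Msh6 (39.9), Xrcc5 (30.8) and Parp1 (23.8 CPM per kb). Exo5 stood at 4.94 CPM per kb in the iKO-labelled and 1.02 CPM per kb in the WT-labelled libraries, the widest gap among the tested genes by ratio.

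**Figure D5:**
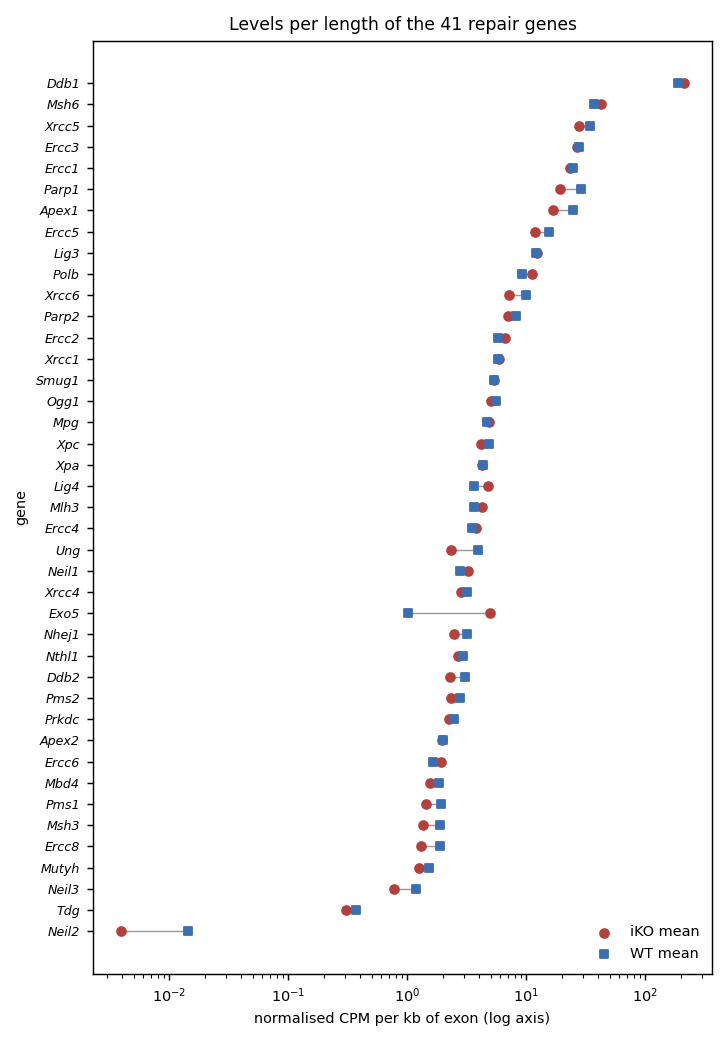
Mean normalised CPM per kb of exon (x axis, log scale) of the 41 repair genes in iKO-labelled (red circles) and WT-labelled (blue squares) libraries, ordered by the mean over both groups. Ddb1 is at the top near 200 CPM per kb, most pairs of points nearly coincide, and Exo5 has the widest gap of the tested genes.

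By position, some chromosomes held only lower repair genes and others only higher ones. All 5 repair genes on chromosome 1 (Parp1, Pms1, Ercc5, Xrcc5 and Nhej1) were lower, with a median log2 fold change of -0.39, and the 703 tested genes of that chromosome had a median of -0.25. All 3 on chromosome 13 (Msh3, Ercc8 and Xrcc4) were lower as well, with a median of -0.47, where the 464 tested genes of that chromosome had -0.19. All 3 on chromosome 6 (Mbd4, Ogg1 and Xpc) were lower too, with medians of -0.21 for them and -0.11 for the chromosome, and both on chromosome 5 (Ung and Pms2), with medians of -0.52 and -0.02. Both on chromosome 11 (Mpg and Lig3) were higher, with medians of 0.04 for them and 0.08 for the chromosome. Single repair genes were higher on chromosomes 9, 12 and 19 and lower on chromosomes 2, 10, 18 and X. Away from chromosome 1, 21 of 35 repair genes were lower with a median of -0.07, and 18 of 32 were lower away from chromosomes 1 and 13, with a median of -0.05. These counts were added after the values were seen, and the part of chromosome position in the differences was not tested.

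Other genes of the same routes, from lists that hold none of the 41 and share some genes with each other, were also more often lower than higher. Of 48 tested genes 16 were higher and 32 lower, with a median log2 fold change of -0.15, and none passed the threshold in edgeR, while 1 was higher and 10 were lower at an unadjusted p under 0.05 and DESeq2 called 5, all lower. In mismatch repair, where the listed partners are mostly replication proteins, 1 of 12 was higher and 11 were lower, with a median of -0.38. The smallest p there were those of the nuclease gene Exo1 (-0.86, SE 0.17) and the sliding clamp gene Pcna (-0.52, SE 0.13). For base excision the counts were 3 and 9 of 12, with the polymerase subunit Pold1 at -0.77 (SE 0.21), and for nucleotide excision 8 and 12 of 20, with Rpa1 at -0.31 (SE 0.10) and Gtf2h2 at -0.42 (SE 0.14). In end joining 5 were higher and 4 lower of 9 tested, with Tdp2 at -0.60 (SE 0.14).

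S phase genes were lower in 20 of 20 cases, beside 48.8% of all tested genes. Their median log2 fold change was -0.42, and 1 was called in edgeR and 7 in DESeq2. The log2 fold changes ran from -0.90 to -0.04, so that some lay near no difference. The groups did not overlap for 9 of the 20, beside 11.3% of all tested genes, and overlapped for the rest. Mcm6, a helicase subunit, had 155 ± 12.4 CPM in the iKO-labelled and 271 ± 6.61 CPM in the WT-labelled libraries (SD, n = 3 each), a log2 fold change of -0.81 (SE 0.10). It passed in edgeR with all libraries (adjusted p = 0.0361) and missed the threshold whichever library was left out (adjusted p = 0.0708 to 0.22). E2f1 had a log2 fold change of -0.90 (SE 0.14, edgeR adjusted p = 0.0622). These S phase values stand beside those of the repair genes, and their part in the lower repair transcripts was not tested. In such bulk libraries fewer cells of a kind and less RNA per cell cannot be told apart.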

How the data were processed

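Libraries were made from total RNA with the TruSeq RNA v2 kit, which does not mark strand. TopHat2, HTSeq, DESeq2, DESeq and mm10 are named by the submitters' processing notes, while versions, annotation and strand setting were not stated. The authors deposited whole-number counts of reads per gene, not normalised. HTSeq summary rows (27.4% to 35.5% of all counts) were left out. A second deposited table holds a DESeq2 result, per the file headers: p-values, a Wald score, log2 fold changes with SE and a mean signal. The column numbered 33 matches no title and was used as an iKO library without a number of its own. The iKO sample titled with the number 2 was matched to no column, so n = 3 for iKO takes the column numbered 33 as a sample of its own.

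Counts were tested in R 4.3.3 with edgeR 4.0.16 (filterByExpr with a minimum count of 10, TMM, robust glmQLFit and glmQLFTest, two-sided, group as the only term). The approximate SE divides the size of the log2 fold change by the square root of F. CPM uses TMM-scaled library sizes. Alternatives were other scalings and filters, DESeq2 1.42.0, limma-voom (limma 3.58.1), no robust estimation, a replicate block and leaving out each library. Leaving out members on chromosome 1 was added after seeing the data. The test was checked on simulated data. Positions and exon lengths come from GENCODE M21 (mm10), near-identical transcripts (at least 95% identity over 200 bases) from blastn 2.17.0.

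Members and lists were chosen with earlier results of these data known. Named with all libraries' values were members past the threshold, the 4 of each route with the smallest p (2 in mismatch repair) and the highest and lowest per length, and in the other lists the 2 genes with the smallest p. Of these list genes, 1 is not reported here. Within groups no pair of libraries agreed within sampling noise (chi-square per degree of freedom at least 48.6).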

Additional observations from a re-analysis of the deposited data

How the results depend on the processing

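The 285 recomputed values are the log2 fold changes, under the 15 alternatives, of the members named with all libraries' values. Of them, 273 kept their direction and side of the threshold. Only Exo5 of these members was called with all libraries, so that the others started from no call. Exo5 stayed called in 10 of the 15 alternatives. Counts of called genes are not among the 285. All genes called numbered 76 with no count filter, 775 in DESeq2, and 7 to 31 when each library was left out in turn, against 43. Repair genes called numbered 5 in DESeq2 and 0 to 1 when each library was left out, with 23 to 30 lower and medians of -0.23 to -0.08. Columns of both groups share the numbers 3 and 4, which no label says mark a pairing. Over these 4 libraries the replicate block called 103 genes, 1 of them a repair gene, Exo5 (log2 fold change 2.37, adjusted p = 0.0478). Without the block these 4 libraries gave 4 genes and 0 repair genes (Exo5 2.36, adjusted p = 0.458, with fewer samples). For the libraries numbered 3 and 4, deviations from the mean of that pair within each group had a correlation of 0.60 between the groups. This value thus compares only the difference between the libraries numbered 3 and 4. Tdg turned to 0.07 with and without this block and to 0.14 without WT 2 (-0.48 to 0.14 when each library was left out), and the cause was not tested. Depth limits Neil2, which had at most 5 reads a library, and Tdg, with 46 to 154.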
